A study of Saccharomyces cerevisiae with 8 samples.

Results

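The 10 genes ARO1, ARO2, ARO3, ARO4, ARO7, TRP2, TRP3, TRP4, TRP5 and TYR1 encode enzymes that make the aromatic amino acids in Saccharomyces cerevisiae. They were chosen by name from 5539 genes measured on 8 spotted arrays, and all 10 were present, each with 2 spots. Every array compared 2 RNA samples of 1 strain, one from cells on minimal medium with 10 mM glycine (channel 1) and one from cells on minimal medium alone (channel 2), grown at steady state to early log phase. The strains were the deletion collection's parent BY4741 (2 arrays, replicates 1 and 3) and collection strains lacking BAS1 (Y06015, 2 arrays), BAS2, also called PHO2 (Y03803, 2 arrays), GCN4 (Y00249, 1 array) and SHM2 (Y02669, 1 array). Strains were assigned from the array titles. For bas2 replicate 1 the source name is BY4741, although its title and description name bas2, and zap1, a further gene name, stands in the title of BY4741 replicate 3. The labels do not list the supplements of the minimal medium, and BY4741 itself needs histidine, leucine, methionine and uracil.

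The pathway starts with DAHP synthase, which joins phosphoenolpyruvate to erythrose 4-phosphate, and runs along a common trunk to chorismate. From chorismate one branch leads through anthranilate to tryptophan, and the other through prephenate to tyrosine and phenylalanine. Gcn4, the activator of amino acid synthesis genes under starvation, is known to act on most genes of the trunk and of the tryptophan branch, whereas ARO7 and TRP1 are known to lie outside this control. Bas1 and Bas2 act as a pair on purine and histidine genes, and Bas2 is also known to bind the TRP4 promoter. Shm2, the cytosolic serine hydroxymethyltransferase, interconverts serine and glycine.

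Values are log2 ratios of the channels, averaged over the spots of a gene and centred on the median gene of the array, so 0 means the middle gene. The labels do not say which channel is the numerator. GCV1, a subunit of the glycine cleavage system that glycine is known to induce, stood at -6.27 and -5.27 in BY4741, so values below 0 likely mean more transcript with glycine. Single arrays may differ in this respect: over all spots, bas1 replicate 1 had r = -0.304 with BY4741 replicate 1, but r = 0.224 with BY4741 replicate 3 and r = 0.577 with bas2 replicate 1. In bas1 replicate 1 GCV1 was at -1.17, while SHM2 was at 1.41 there against -3.08 and -1.47 in BY4741. All signs therefore stand as deposited, and differences that involve bas1 are also given for the members with both bas1 arrays turned in sign. Before centring, array medians over genes ran from -0.78 to 0.65, and the SD over genes was smallest on BY4741 replicate 3 (0.379) and largest on bas1 replicate 2 (2.07). On bas1 replicate 2, 5465 of 12800 spots had no value, against 45 to 2302 on the other arrays. Replicates of a strain correlated over all spots with r = 0.422 in BY4741, 0.053 in bas1 and 0.112 in bas2. The bas1 and bas2 arrays with the same replicate number correlated more closely, with r = 0.577 and 0.502. Statements on both arrays of bas1 or of bas2 thus rest on replicates that agreed little. A ratio within 1 strain cannot check a deletion, because both channels lack the gene.

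Single members ranged from -1.48 (TRP5, BY4741 replicate 1) to 1.74 (ARO7, gcn4), while their median kept close to the middle gene. It was -0.26 and -0.28 in BY4741, 0.38 and 0.29 in bas1, 0.11 and -0.05 in bas2, -0.19 in gcn4 and -0.06 in shm2. The genes of the trunk and of the tryptophan branch were mostly below the middle in BY4741 and above it in bas1. Of the prephenate branch, ARO7 was above the middle on both BY4741 arrays and below it on its 1 bas1 array, and TYR1 was on both sides in BY4741 and below in bas1. These positions are relative to the centred arrays: without centring the BY4741 median over the members was 0.25 and the bas1 median 0.19. Leaving out centring moves all genes of an array by the same amount. It changes their place against 0 but not the distance of the members from other genes. No member passed limma's moderated test (adjusted p under 0.05 over all genes) in any of 10 comparisons, which were the 5 strain ratios and 5 differences between strains. Of 97 values tested over the members, 5 had an unadjusted p under 0.05, where 1.85% to 16.9% of all genes did, depending on the comparison, and the smallest adjusted p was 0.285. Errors are standard errors (SE) of that fit, in which all strains share the spread between arrays, and the labels do not say whether replicate arrays come from separate cultures, so the p-values measure only the spread between these arrays. The lone gcn4 and shm2 arrays are thus assumed to vary like the replicated strains. On simulated data, their differences from BY4741 were not called even for genes changed by 4 in log2, so the absence of calls there is not informative.

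**Figure D1:**
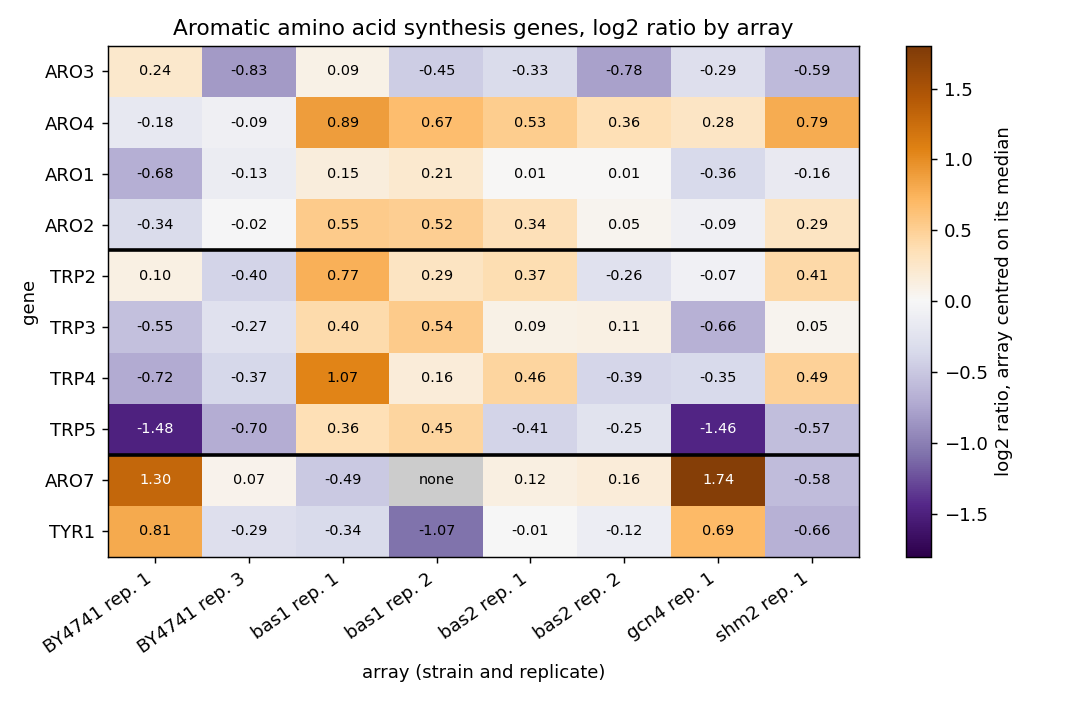
Centred log2 ratio (colour and printed value) of each gene (rows, ordered as trunk, tryptophan branch and prephenate branch) on each array (columns). TRP5 is lowest on BY4741 replicate 1 (-1.48) and gcn4 (-1.46), ARO7 is highest on the same arrays (1.30 and 1.74), and without centring the BY4741 and bas1 columns no longer lie on opposite sides of 0 (medians 0.25 and 0.19).

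Spots of a gene agreed closely on most arrays. The median gap between the 2 spots of a member was between 0.03 (bas1 replicate 1) and 0.13 (bas2 replicate 2) in log2, and over all genes it was between 0.05 and 0.17. One value stood apart: the TYR1 spots on the shm2 array were at 0.55 and -1.87, a gap of 2.41, so their mean of -0.66 lies far from both. The next largest gap among members was 0.57, for ARO7 on the same array. No member spot lay within 0.003 of a deposited ratio of 1.

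ARO3 and ARO4 encode the paralogous DAHP synthases, which phenylalanine and tyrosine respectively inhibit. ARO4 (YBR249C) was at -0.18 and -0.09 in BY4741, 0.89 and 0.67 in bas1, 0.53 and 0.36 in bas2, 0.28 in gcn4 and 0.79 in shm2. The BY4741 arrays were the lowest, and no array of another strain overlapped with them. Taken strain by strain, 31.4% of genes lay above both BY4741 arrays in bas1, 19.8% in bas2, 29.4% in gcn4 and 36.6% in shm2. The share for all strains together was not computed. ARO4 differed from BY4741 by 0.92 ± 0.37 in bas1 (adjusted p = 0.338, limma) and by 0.58 ± 0.37 in bas2 (adjusted p = 0.846), and in bas1 by -0.64 with the sign turned. Its ratio within bas1, 0.78 ± 0.26 (n = 2 arrays), had the smallest adjusted p of any member in any comparison, limma's 0.285, at an unadjusted limma p of 0.0284.

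ARO3 (YDR035W) was at 0.24 and -0.83 in BY4741, 0.09 and -0.45 in bas1, -0.33 and -0.78 in bas2, -0.29 in gcn4 and -0.59 in shm2. Its BY4741 arrays were its highest and its lowest values, so all other strains lay between them. ARO3 and ARO4 thus differed in pattern: ARO4 minus ARO3 was positive on 7 of 8 arrays, from 0.58 in gcn4 to 1.38 in shm2, and negative on BY4741 replicate 1 (-0.41). How far the probes of the paralogs cross-hybridise is not known from the sources used here.

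ARO1 (YDR127W) encodes the multifunctional arom protein that carries out the middle steps of the trunk. It was at -0.68 and -0.13 in BY4741, 0.15 and 0.21 in bas1, 0.01 and 0.01 in bas2, -0.36 in gcn4 and -0.16 in shm2. The gcn4 and shm2 values lay within the BY4741 range, and the bas1 and bas2 values above it. Among all genes tested, 31.4% lay above that range in bas1 and 19.8% in bas2. ARO2 (YGL148W), chorismate synthase, stood higher than ARO1 on every array, with -0.34 and -0.02 in BY4741, 0.55 and 0.52 in bas1, 0.34 and 0.05 in bas2, -0.09 in gcn4 and 0.29 in shm2. The difference between bas1 and BY4741 was 0.59 ± 0.40 for ARO1 (limma adjusted p = 0.438) and 0.71 ± 0.38 for ARO2 (0.390), or 0.22 and -0.36 with the sign of bas1 turned.

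The tryptophan-branch members were, like the trunk genes other than ARO3, higher in bas1 than in BY4741 without overlap of the centred arrays as deposited. The same held for 31.4% of all genes tested. For ARO3 the difference was 0.12 and the arrays overlapped. TRP2 (YER090W) encodes anthranilate synthase, and TRP3 (YKL211C) its glutamine-using partner, which also carries indole-glycerol-phosphate synthase. TRP2 was at 0.10 and -0.40 in BY4741, 0.77 and 0.29 in bas1, 0.37 and -0.26 in bas2, -0.07 in gcn4 and 0.41 in shm2. TRP3 was at -0.55 and -0.27 in BY4741, 0.40 and 0.54 in bas1, 0.09 and 0.11 in bas2, -0.66 in gcn4 and 0.05 in shm2. For both genes the bas1 arrays lay above the BY4741 arrays as deposited, and turned in sign they differed from BY4741 by -0.38 (TRP2) and -0.06 (TRP3). The gcn4 array lay between the BY4741 arrays for TRP2 and below both for TRP3 (33.7% of all genes tested). TRP2 minus TRP3, the subunits of 1 enzyme, changed sign between arrays, from -0.37 on bas2 replicate 2 to 0.65 on BY4741 replicate 1.

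TRP4 (YDR354W) encodes anthranilate phosphoribosyltransferase. It was at -0.72 and -0.37 in BY4741, 1.07 and 0.16 in bas1, 0.46 and -0.39 in bas2, -0.35 in gcn4 and 0.49 in shm2. The bas1 arrays lay above those of BY4741, as in 31.4% of all genes tested. The second bas2 array, at -0.39, fell within the BY4741 range and the first did not. TRP4 therefore differed from BY4741 by 1.16 ± 0.53 in bas1 (limma adjusted p = 0.361), by 0.58 ± 0.53 in bas2 (0.846) and by 1.03 ± 0.65 in shm2 (1.00). Turned in sign, bas1 differed from BY4741 by -0.07 in TRP4.

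TRP5 (YGL026C), tryptophan synthase, had the lowest mean in BY4741, with -1.48 and -0.70 on the arrays. Its ratio there was -1.09 ± 0.31 (n = 2; limma adjusted p = 0.849), and it was the only member with an unadjusted p under 0.05 in BY4741. It was at 0.36 and 0.45 in bas1, -0.41 and -0.25 in bas2, -1.46 in gcn4 and -0.57 in shm2. The bas1, bas2 and shm2 values all lay above both BY4741 arrays, and gcn4 lay beside the lower one. Of all genes tested, 31.4% lay above both BY4741 arrays in bas1, 19.8% in bas2 and 36.6% in shm2. The difference of 1.50 ± 0.44 between bas1 and BY4741 (limma adjusted p = 0.338) was 0.68 with the sign of bas1 turned. As deposited it was 1.84 between the replicate 1 arrays and 1.15 between bas1 replicate 2 and BY4741 replicate 3.

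The prephenate branch starts with ARO7 (YPR060C), chorismate mutase, and TYR1 (YBR166C), prephenate dehydrogenase, makes the precursor of tyrosine. ARO7 was at 1.30 and 0.07 in BY4741, -0.49 in bas1 (replicate 1, the array with a value), 0.12 and 0.16 in bas2, 1.74 in gcn4 and -0.58 in shm2. It was high on BY4741 replicate 1 and gcn4 and low on bas1 and shm2. In gcn4 the limma p was 0.0361 (adjusted p = 0.431, SE 0.58, 1 array). ARO7 was not tested in bas1, because a value was missing, and between the replicate 1 arrays bas1 minus BY4741 was -1.79.

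TYR1 was at 0.81 and -0.29 in BY4741, -0.34 and -1.07 in bas1, -0.01 and -0.12 in bas2, 0.69 in gcn4 and -0.66 in shm2, the last from discordant spots. Both bas1 arrays lay below both BY4741 arrays as deposited, as in 22.4% of all genes tested. The difference was -0.97 ± 0.54 on average (limma adjusted p = 0.396), and 0.45 with the sign of bas1 turned. The coding lengths of the members ran from 771 bases for ARO7 to 4767 for ARO1, and with a curve on coding length removed from each array, a setting chosen after seeing the data, the median difference of the members between bas1 and BY4741 was 0.56 in place of 0.71.

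**Figure D2:**
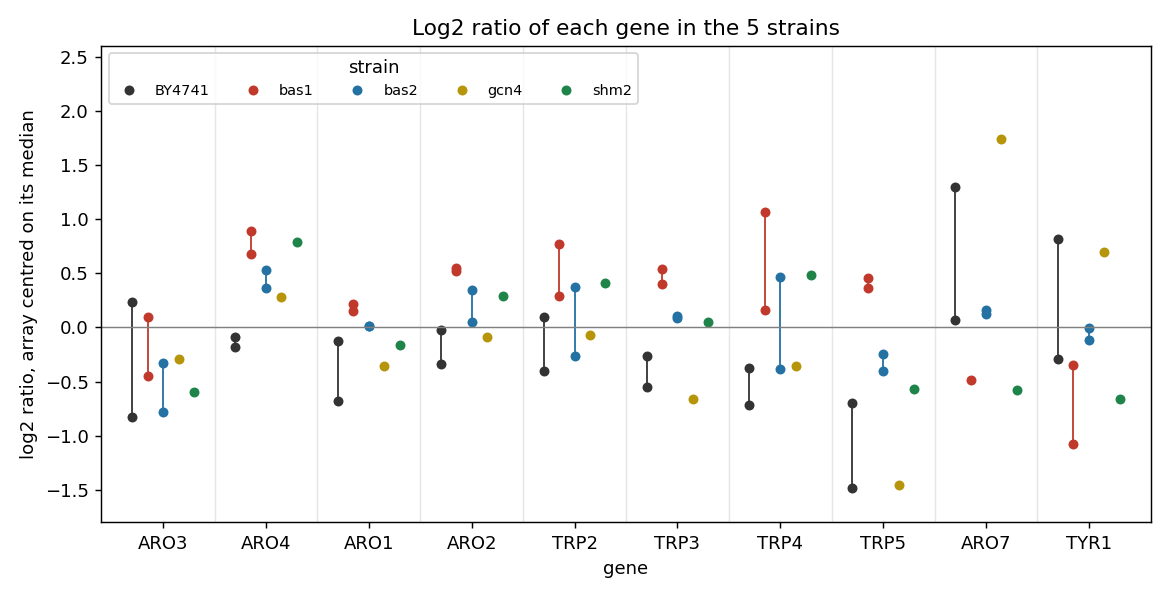
Centred log2 ratio (vertical axis) of each gene in the 5 strains, with 1 point per array and a line joining the replicates of a strain. The bas1 points lie above the BY4741 points for 7 genes (31.4% of all genes tested) and below them for TYR1 (22.4%), and ARO7 has 1 bas1 point; without centring the median over the members was 0.25 in BY4741 and 0.19 in bas1.

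Within BY4741, 6 members were below 0 on both arrays (ARO1, ARO2, ARO4, TRP3, TRP4 and TRP5) and ARO7 was above 0 on both. Of 5512 genes, 32.2% were below 0 on both BY4741 arrays and 32.1% above. No member and 0% of genes passed limma's adjusted test there, while 3.37% of genes and TRP5 had an unadjusted p under 0.05. The median over the members was -0.24 in log2, beside 0.00 for all genes tested, and it was 0.25 without centring and -0.44 with a common median absolute deviation. No member stood at 1 or higher on both arrays (0.363% of genes) or at -1 or lower on both (0.708%).

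In bas1, 7 of 9 tested members were above 0 on both arrays (ARO1, ARO2, ARO4 and the 4 TRP members) and TYR1 was below. The background was 35.7% of 3444 genes above 0 on both arrays and 25.3% below. The median was 0.47 over the members and 0.13 over all genes tested, and -0.47 over the members with the sign of the bas1 arrays turned. It was 0.29 without bas1 replicate 1, 0.19 without centring and 0.26 with the coding-length curve removed. No member stood at 1 or higher on both bas1 arrays (3.69% of genes) or at -1 or lower (3.25%). In bas1, 16.9% of genes had an unadjusted limma p under 0.05, against 1 of 9 members, and 0% passed the adjusted test.

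In bas1 minus BY4741 the arrays did not overlap, with bas1 higher, for 7 of 9 members (ARO1, ARO2, ARO4, TRP2, TRP3, TRP4 and TRP5), against 31.4% of 3429 genes, and with bas1 lower for TYR1, against 22.4% of genes. Of the 9 members, 6 were above 0 on both bas1 arrays and below 0 on both BY4741 arrays, as were 12% of genes. The median difference was 0.71 over the members and 0.11 over all genes tested. It was 0.86 between the arrays whose titles spell out the steady state (replicate 1 of each strain) and 0.54 between those whose titles abbreviate it (bas1 replicate 2 and BY4741 replicate 3), where the medians over all genes were 0.00 and -0.01. No gene passed limma's adjusted test (0% of genes), and TRP5 alone among the members was in the 14.4% with an unadjusted p under 0.05. The median was -0.06 without centring and -0.06 with the sign of bas1 turned, so its size against 0 rests on both choices. Leaving out centring shifted all genes by the same amount, so the distance of the members from all genes did not change with it. With that sign turned, the arrays did not overlap for TRP5, higher in bas1 (14.5% of genes), and for ARO2 and ARO4, lower in bas1 (24%).

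In bas2 the members were on both sides of the middle gene. Of the 10 members, 5 were above 0 on both bas2 arrays (ARO1, ARO2, ARO4, ARO7 and TRP3), against 31.4% of 4897 genes, and 3 were below (ARO3, TRP5 and TYR1), against 29.1%. The median was 0.05 over the members (-0.053 without bas2 replicate 1, 0.11 without replicate 2) and 0.02 over all genes, and no member or gene passed limma (0% of genes adjusted, 5.55% unadjusted). No member stood at 1 or higher on both bas2 arrays (1.23% of genes) or at -1 or lower (1.33%). Compared with BY4741, ARO1, ARO2, ARO4, TRP3 and TRP5 were higher in bas2 with no overlap of arrays (19.8% of 4874 genes), and no member was lower without overlap (20.8% of genes). ARO1, ARO2, ARO4 and TRP3 were above 0 on both bas2 arrays and below 0 on both BY4741 arrays, as were 5.93% of genes. The median difference of 0.39, beside -0.08 for all genes, was 0.66 between the replicate 1 arrays and 0.14 between the other pair. It was 0.19 without bas2 replicate 1, whose labels conflict, 0.58 without BY4741 replicate 3, and -0.16 without centring. No gene passed limma for this difference (0% adjusted, 1.85% unadjusted, 0 of 10 members unadjusted).

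Setting bas1 against bas2 directly, 8 of 9 tested members had a positive difference, against 48.5% of genes. The median difference of the members was 0.37, beside -0.03 for all genes. The arrays did not overlap, with bas1 higher, for 5 of 9 members (ARO1, ARO2, ARO4, TRP3 and TRP5), against 18.6% of 3260 genes, and with bas1 lower for TYR1, against 19.7%. TRP5 was above 0 on both bas1 arrays and below 0 on both bas2 arrays, as were 2.94% of genes. The median difference was 0.33 between the replicate 1 arrays and 0.43 between the replicate 2 arrays, beside 0.03 and -0.15 for all genes. It was thus positive in both pairs, but farther from all genes in the replicate 2 pair. It was 0.17 without bas2 replicate 2, 0.23 without bas1 replicate 1, 0.16 without centring, 0.21 with a common median absolute deviation over genes, 0.24 after removing the coding-length curve and -0.57 with the sign of bas1 turned. With that sign turned, ARO3 and TYR1 were higher in bas1 without overlap (21.6% of genes) and ARO1, ARO2, ARO4, TRP2 and TRP3 lower (34.5%). TRP5 differed by 0.73 ± 0.44 (limma adjusted p = 0.914), and no gene passed (0% adjusted, 2.3% unadjusted, 0 of 9 members unadjusted).

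On the gcn4 array 7 of 10 members were below 0 and 3 above (ARO4, ARO7 and TYR1), where centring puts 50% of 5378 genes on each side. ARO7 was at 1 or higher, with 13.2% of genes, and TRP5 at -1 or lower, with 16.4%. Both had an unadjusted limma p under 0.05, as did 11.5% of genes, and 0% passed after adjustment. The median was -0.19 over the members (-0.45 without centring) and 0.00 over all genes. Compared with BY4741 the members had a median difference of 0.08, beside -0.01 for all genes, which was -0.67 without centring, 0.43 with a common median absolute deviation and 0.17 without BY4741 replicate 1. The differences ran from -0.37 ± 0.53 for TRP5 to 1.06 ± 0.71 for ARO7, and for both genes the limma adjusted p was 1.00. Outside the range of the BY4741 arrays lay ARO4, ARO7 and TRP4 above (29.4% of 5353 genes) and TRP3 below (33.7%), and ARO4 was above 0 in gcn4 and below 0 on both BY4741 arrays, as were 5.1% of genes. The gcn4 array and BY4741 replicate 1, whose titles both spell out the steady state, correlated with r = 0.64 over genes, and against that array alone the median difference of the members was 0.13. No gene passed limma for this difference (0% adjusted, 3.49% unadjusted, 0 of 10 members unadjusted).

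On the shm2 array the members split evenly, with 5 above 0 (ARO2, ARO4, TRP2, TRP3 and TRP4) and 5 below, where 50% of 5469 genes lay on each side. No member stood at 1 or higher (5.72% of genes) or at -1 or lower (7.62%), and ARO4 was the highest at 0.79. The median was -0.06 over the members (-0.19 without centring) and 0.00 over all genes, and no gene passed limma (0% adjusted, 4.72% unadjusted, 0 of 10 members unadjusted). Compared with BY4741, 6 members lay above both BY4741 arrays (ARO2, ARO4, TRP2, TRP3, TRP4 and TRP5) and ARO7 and TYR1 below, against 36.6% of 5442 genes on each side. The TYR1 value is the mean of discordant spots at 0.55 and -1.87. Its higher spot lies above 0 and within the BY4741 range, so its place below both rests on the lower spot. ARO2, ARO4, TRP3 and TRP4 were above 0 in shm2 and below 0 on both BY4741 arrays, as were 14.1% of genes. The median difference was 0.46, beside 0.00 for all genes, and it was 0.27 without BY4741 replicate 1 and -0.15 without centring. ARO7 differed by -1.27 ± 0.71 (limma adjusted p = 1.00), and no gene passed (0% adjusted, 3.79% unadjusted, 0 of 10 members unadjusted).

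**Figure D3:**
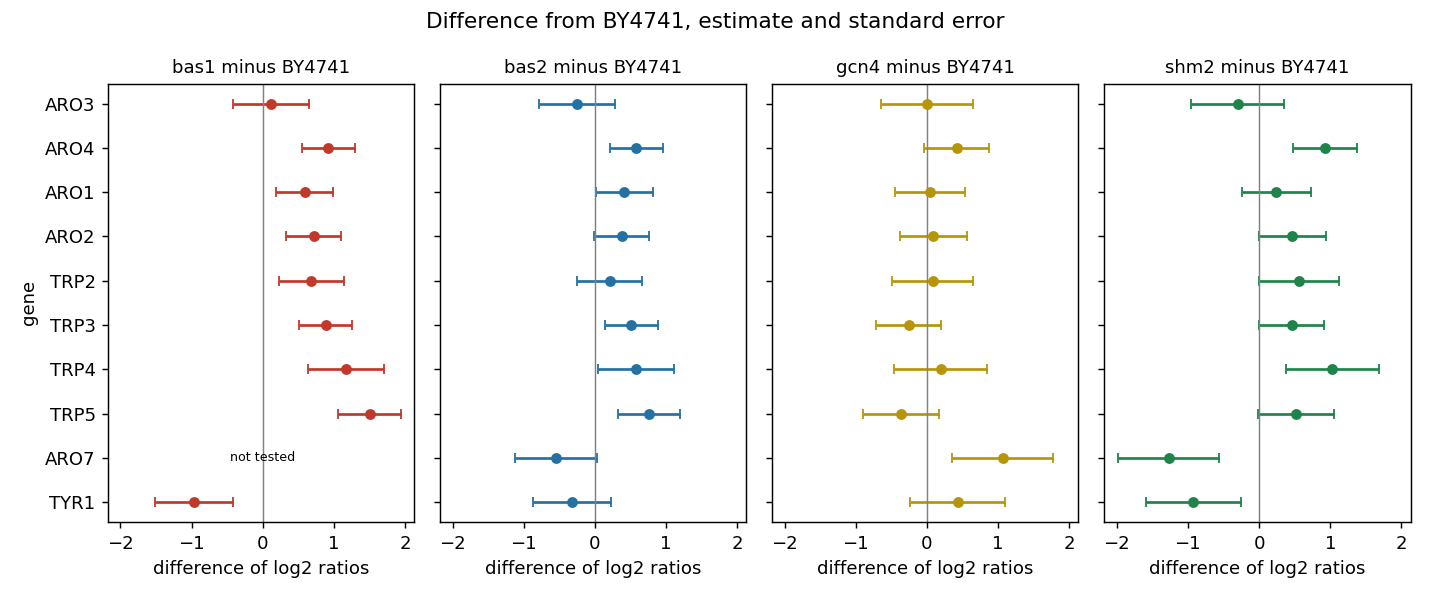
Difference of the log2 ratio from BY4741 (horizontal axis) for each gene (rows) in bas1, bas2, gcn4 and shm2, with the limma estimate as a point and its standard error as a bar. The bas1 estimates run from -0.97 for TYR1 to 1.50 for TRP5, and no estimate passed the test after adjustment; all panels share the same BY4741 arrays, and without centring the medians over the members were -0.06, -0.16, -0.67 and -0.15.

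The route also holds PHA2, TRP1, ARO8 and ARO9, which were listed by role. PHA2 (YNL316C), prephenate dehydratase of the phenylalanine side, was at 0.60 and 0.14 in BY4741, 0.76 in bas1 replicate 1, 0.54 and -0.14 in bas2, 0.83 in gcn4 and -0.61 in shm2. Like ARO7 it was highest on gcn4 and lowest on shm2. TRP1 (YDR007W), phosphoribosylanthranilate isomerase, was at 0.09 and -0.12 in BY4741, -0.38 and -0.75 in bas1, -0.29 and -0.83 in bas2, 0.27 in gcn4 and 0.45 in shm2. Unlike the 4 TRP members, TRP1 was lower in bas1 and bas2 than in BY4741 without overlap of arrays, by -0.54 ± 0.42 in both (limma adjusted p = 0.472 and 0.846), or 0.58 in bas1 with the sign turned. Of all genes tested, 22.4% were lower in bas1 and 20.8% lower in bas2 without overlap.

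ARO8 (YGL202W), the main aromatic aminotransferase, was at -1.47 and -0.62 in BY4741, 0.88 and 0.53 in bas1, 0.41 and -0.33 in bas2, -0.84 in gcn4 and 0.18 in shm2. Its difference of 1.75 ± 0.51 between bas1 and BY4741 (limma adjusted p = 0.338) was 0.34 with the sign of bas1 turned. ARO9 (YHR137W), the inducible aminotransferase, was at 0.77 and 0.52 in BY4741, -0.32 in bas1 replicate 1, -1.62 in bas2 replicate 1, -0.79 in gcn4 and 0.02 in shm2. It therefore stood above 0 in BY4741, where ARO8 stood below. None of the 4 passed limma's adjusted test where it was tested, and for want of values PHA2 and ARO9 were not tested in comparisons with bas1, nor ARO9 in those with bas2.

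Other amino acid routes were set beside the aromatic one by the median of their measured genes on each array. The branched-chain list includes LEU2 and the histidine list HIS3, although BY4741 needs leucine and histidine. The labels do not say whether the spots of LEU2 and HIS3 measure a working gene in these strains. The branched-chain list (11 genes) moved over a wider range, with -1.22 and -0.30 in BY4741 and 0.87 and 0.96 in bas1, and its median difference between bas1 and BY4741 was 1.67, positive for 11 of 11 genes. For lysine synthesis that difference was 1.41 (6 of 7 positive), for arginine 1.12 (5 of 5) and for histidine 0.19 (4 of 6), against 0.71 (8 of 9) for the aromatic genes. Over all genes tested, 54.2% had a positive difference. The median was thus positive in each list on centred arrays, and without centring it was -0.06 for the aromatic and -0.58 for the histidine genes, 0.35 for arginine, 0.64 for lysine and 0.91 for the branched-chain genes. With the sign of bas1 turned it was -0.06 for the aromatic, 0.26 for the histidine, 0.55 for the arginine, -1.12 for the lysine and -0.15 for the branched-chain genes, so the order of the lists depends on that sign. In gcn4 the branched-chain median was -0.83, the arginine median -0.25, the aromatic median -0.19, the histidine median 0.10 and the lysine median 0.28. Without centring, in the same order, they were -1.09, -0.51, -0.45, -0.17 and 0.019. No gene of these lists passed limma in any comparison, and the difference between lists was not tested.

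**Figure D4:**
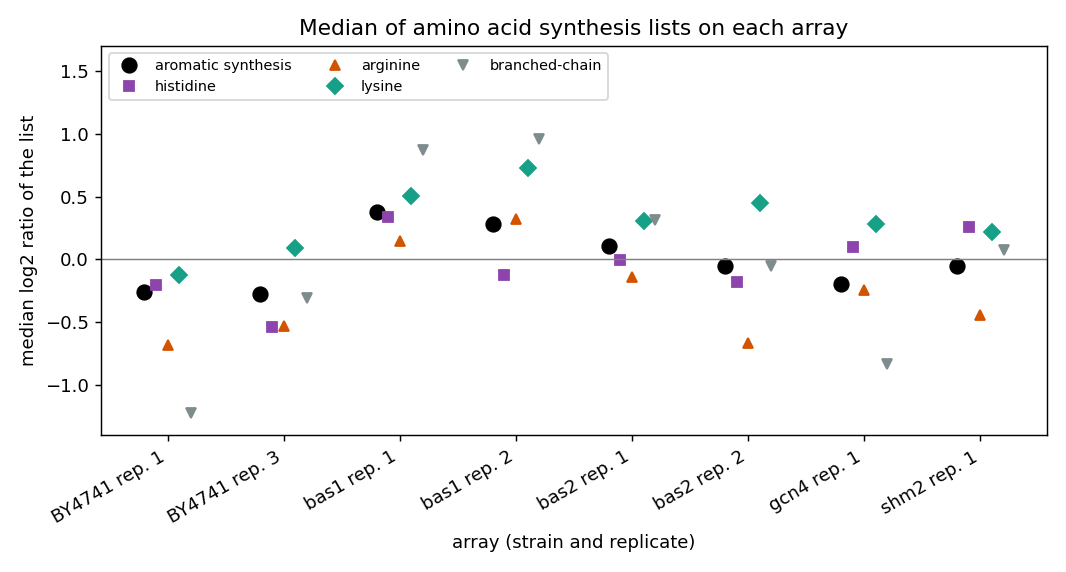
Median centred log2 ratio (vertical axis) of 5 amino acid synthesis lists on each array (horizontal axis), 1 symbol per list. The aromatic medians run from -0.28 to 0.38 and the branched-chain medians from -1.22 to 0.96; without centring the aromatic BY4741 median was 0.25.

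Among the 3168 genes with a value on every array, the 5 outside the members whose values came closest to the median of the members were SEC14, CTF3, CWC25, TGL3 and RHO1. Their root mean square difference from it over the 8 arrays was 0.14 to 0.16. Of the members themselves, ARO1 (0.20), ARO2 (0.21) and TRP3 (0.23) lay closest to that median, and TRP5 (0.69), TYR1 (0.77) and ARO7 (1.03, 7 arrays) farthest. The median of the members therefore describes ARO1, ARO2 and TRP3 better than the prephenate branch or the last step of the tryptophan branch. The trunk genes ARO4 (0.47) and ARO3 (0.52) lay farther from it than TRP2 (0.28) and TRP4 (0.40). Each member counts in the median it is set against. The prephenate branch adds fewer genes to that median than the trunk or the tryptophan branch, so its larger distance is partly built in.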

How the data were processed

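Per the labels, a GenePix 4000B scanner and the GenePix Pro 3.0 software were used. The authors deposited log2 channel ratios per spot: as linear ratios, 98.4 to 100% of the values on an array were multiples of 0.001 (to within 0.01 of a step). The labels name no dyes, background correction or normalization, channel signals were not used, and precision is limited by the number of arrays. Of 12800 spots, 11138 carried 1 gene symbol, 0 several and 1662 none. Names were updated through the gene identifier for 11128 spots (RefSeq gene table), and 10 kept the platform's symbol. Spots were averaged per gene and each array centred on its median over genes. limma 3.58.1 in R 4.3.3 (lmFit, eBayes, two-sided) was fitted over all 8 arrays with 5 strain means and at most 3 residual degrees of freedom, and p-values were adjusted (Benjamini-Hochberg) over all genes with a value on every array of the strains compared. P-values measure the spread between these arrays, which may be technical. On simulated data for the difference between bas1 and BY4741 (3429 genes), 83.3% of genes changed by 4 in log2 were called, 16.4% of those changed by 2 and 0% of those changed by 1. For bas2 minus BY4741, 59.1% of those changed by 4 were called, and for gcn4 and shm2 minus BY4741 0%. The simulation gave a gene the same spread on every array, whereas the SD over genes ran from 0.379 to 2.07 between arrays. The members and lists were chosen with earlier results of these data known. All members are named, with TRP1, PHA2, ARO8 and ARO9 by role and the 5 genes nearest the median of the members. Of the comparison lists, 7 of 7 histidine, 7 of 9 arginine, 8 of 8 lysine and 11 of 11 branched-chain genes were matched by name. Alternatives covered centring, array spread, title form, replicate number, spots at a ratio of 1, missing values, sign and replicates left out.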

Additional observations from a re-analysis of the deposited data

Results flagged for a closer look

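The median difference of the member genes between bas1 and BY4741, 0.71 in log2, stood out because the members' median was above 0 on both bas1 arrays (0.38 and 0.29) and below 0 on both BY4741 arrays (-0.26 and -0.28). The difference of these medians was not tested, and the median difference was -0.06 without centring and -0.06 with the sign of bas1 turned. Leaving out centring moves all genes alike, so it does not change the distance of the members from the other genes. The same change of sign held for the branched-chain list (-1.22 and -0.30 in BY4741, 0.87 and 0.96 in bas1). It also held for the arginine list (-0.68 and -0.53 in BY4741, 0.15 and 0.32 in bas1), but not for histidine or lysine. The median differences of the branched-chain and arginine lists were larger, at 1.67 and 1.12, so the pattern was not particular to the aromatic genes. No strain had enough arrays for a test of single outlying arrays.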

How the results depend on the processing

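Of the member values, 97 were recomputed under each of the 14 alternatives except genes on all 8 arrays (90) and the turned sign of bas1 (27), none passed limma's adjusted test, and the smallest adjusted p among them was 0.142. Signs of member values changed in 32 of 97 without centring, in 23 of 27 with the sign of bas1 turned and in at most 8 under each other setting. The values without centring are placed against 0, and all genes of an array moved by the same amount. Without centring the medians over the members were 0.25 in BY4741, 0.19 in bas1, -0.025 in bas2, -0.45 in gcn4 and -0.19 in shm2, with differences from BY4741 of -0.055 (bas1), -0.16 (bas2), -0.67 (gcn4) and -0.15 (shm2) and 0.16 for bas1 minus bas2, and 1 and 13 genes, none a member, passed in bas1 and gcn4. With a common median absolute deviation they were -0.44 in BY4741, 0.33 in bas1 and 0.14 in bas2, with differences from BY4741 of 0.86, 0.53 and 0.43 (bas1, bas2, gcn4) and 0.21 for bas1 minus bas2. With the sign of bas1 turned they were -0.47 in bas1, -0.061 against BY4741 and -0.57 against bas2, where 2 genes passed. With the coding-length curve removed, chosen after seeing the data, they were 0.26 in bas1, 0.56 against BY4741 and 0.24 against bas2. Among genes on all 8 arrays, which drops ARO7, the medians were -0.30 in BY4741, -0.29 in gcn4 and 0.048 in shm2. With the title form as a block they were -0.30 in gcn4, -0.14 in shm2 and 0.37 for shm2 minus BY4741.

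With the replicate block the medians were 0.55 in bas1, -0.30 in gcn4 and 0.047 in shm2, with differences from BY4741 of 0.95 in bas1, 0.61 in bas2 and 0.56 in shm2, and no call changed. The bas1 and bas2 arrays share replicate numbers 1 and 2, and over 3260 genes their differences between replicates correlated with r = 0.542, but the labels do not say that a number marks a shared culture or day.

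Leaving out 1 replicate at a time, the medians ran from -0.28 to -0.24 in BY4741, 0.29 to 0.47 in bas1, -0.053 to 0.11 in bas2, 0.70 to 0.87 for bas1 minus BY4741, 0.19 to 0.58 for bas2 minus BY4741, 0.08 to 0.17 for gcn4 minus BY4741, 0.27 to 0.56 for shm2 minus BY4741 and 0.17 to 0.48 for bas1 minus bas2, and they did not move in gcn4 (-0.19) or shm2 (-0.06). Genes called ran from 0 to 641 in bas1, 0 to 493 for bas1 minus BY4741 and 0 to 158 for bas1 minus bas2, the upper values without bas1 replicate 1, which leaves the array with the widest spread, and from 0 to 4 in gcn4, the upper value without either bas1 array. No member was among them. Signal over background is unknown, so a weak spot cannot be told from a strong one.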
